A study of Mus musculus with 4 samples.

Results

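The basement membrane genes described here are 36 of the 21637 mouse genes counted: 6 collagen IV chains, 10 laminin chains, 6 nidogen and proteoglycan genes, 5 matricellular and fibronectin genes, 5 collagen-processing genes and 4 receptors. They were chosen by gene family, with earlier results of these counts known, including that several of them are among the most abundant transcripts. Their levels are therefore a description, with no test. Basement membranes are thin sheets of extracellular matrix that underlie epithelia and surround many other cell types. Collagen IV and laminins each form a network of their own, nidogens and heparan sulfate proteoglycans such as perlecan bridge the networks, and integrins and dystroglycan hold cells to the sheet. In the mouse embryo the primitive endoderm and the parietal endoderm that derives from it are known for secreting large amounts of basement membrane, and neural tissue also rests on one.

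The cells were cell aggregates grown from iMN-ESCs, mouse embryonic stem cells of C57BL/6 background in which doxycycline (Dox) switches on Isl1-Lhx3, a fusion of a pair of LIM-homeodomain factors of motor neurons. All aggregates spent 2 days in stem cell medium with LIF and 2 days in 0.5 µM all-trans retinoic acid. They then stayed in retinoic acid for another 2 to 3 days, either without Dox (2 libraries) or with 2 µg/mL Dox (2 libraries). No library analysed here is from transgene-free cells in Dox, so a response to the drug and a response to the fusion cannot be told apart. The sources used here name 1 line and do not say whether it is 1 clone.

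Part counts summed to 24020832 to 53903936 per library. Lhx3 followed the labels, at 0.404 and 0.286 CPM (counts scaled to a total of 1000000) without Dox and 125 and 108 CPM with it, as did Isl1, at 3.08 and 5.83 CPM against 104 and 82.4 CPM. Libraries with the same replicate number shared a pattern that crosses the groups. In genes with at least 10 parts and 500 counts in every library, the parts before the middle of the gene, from the 5′ end, held a median of 36.2% of a gene's counts in no Dox replicate 1 and 35.0% in Dox replicate 1, against 27.4% and 29.5% in the libraries numbered 2. Levels of long and short members also differed with that number, as described last. With 2 libraries a group, an exact permutation test of a single value cannot go below p = 0.333, so differences were tested only in the fit over all genes.

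Col4a1 had the highest summed count of all 21637 genes, and Col4a2, Lama1, Sparc, Lamc1 and Lamb1 were the next 5. These 6 members held 6.26% to 7.30% of all counts in a library, and the 36 members together 7.56% to 8.82%. The summed share was 7.56% and 7.97% without Dox and 7.71% and 8.82% with Dox, so the groups overlapped. Long genes gather more counts, so levels of different genes are compared here as CPM per kb of exons. On that scale Sparc, Col4a1 and Col4a2 ranked 1, 2 and 3 of the 21143 genes with a known length, and Lamb1, Lama1, Lamc1 and Serpinh1 ranked 7, 9, 10 and 12. Members ranged from 3568 CPM per kb for Sparc down to 0.0245 CPM per kb for Col4a3 (means of 4 libraries).

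**Figure D1:**
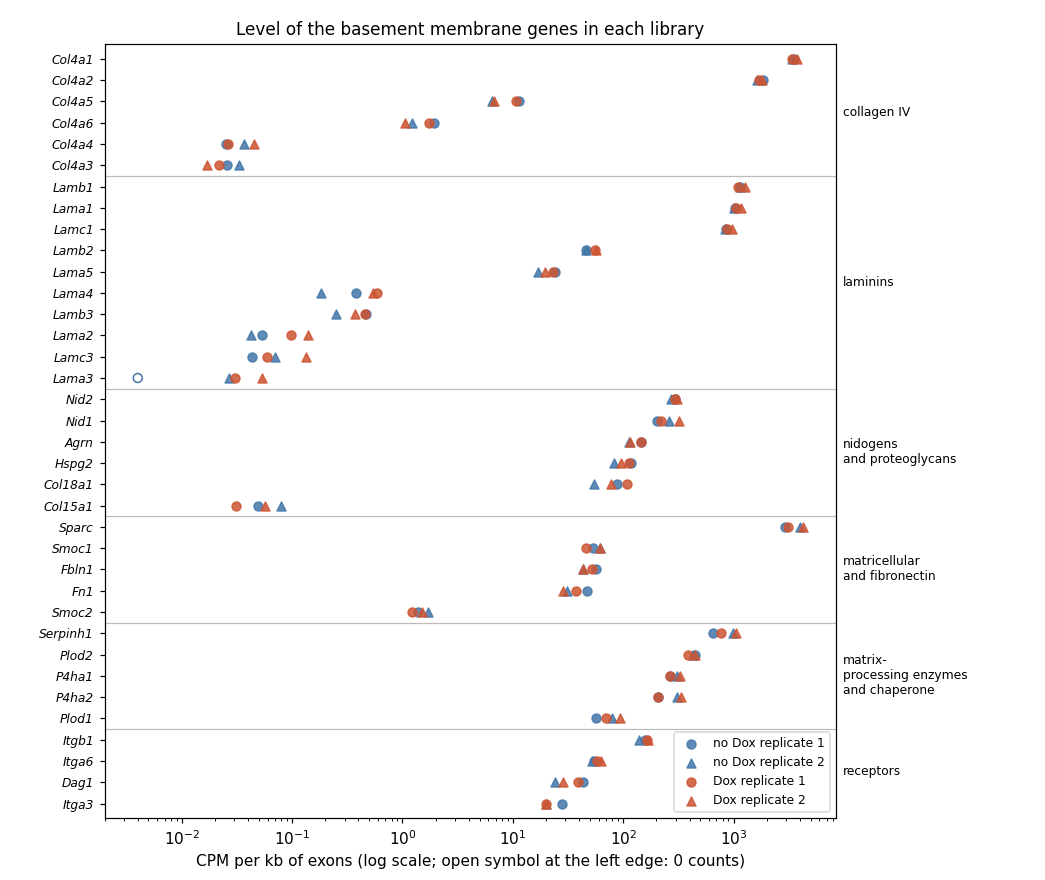
Level of each of the 36 members in each of the 4 libraries, in CPM per kb of exons on a log axis; members are grouped by role, circles are replicate 1, triangles replicate 2, blue no Dox and red Dox, and the open circle marks 0 counts. Col4a1, Col4a2, Lamb1, Lama1, Lamc1 and Sparc lie at 844 CPM per kb or more in every library, while Col4a3, Col4a4, Lama3 and Col15a1 stay below 0.1.

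Collagen IV is secreted as a trimer of alpha chains, and its most widespread form holds a pair of the chain encoded by Col4a1 with a single chain encoded by Col4a2. Col4a1 stood at 23460 and 22239 CPM without Dox, against 22283 and 24706 CPM with Dox. The Dox libraries overlapped with the others and included the highest value. The log2 fold change with Dox was 0.04 (SE 0.15, 95% interval -0.33 to 0.41, adjusted p = 0.983 by edgeR's quasi-likelihood test with Benjamini-Hochberg adjustment over 14277 genes, as for all adjusted p below). Col4a2 stood at 11938 and 10427 CPM without Dox, against 10933 and 11661 CPM with Dox, with both Dox libraries inside the range of the others. Its log2 fold change was 0.01 (SE 0.15, 95% interval -0.36 to 0.39, adjusted p = 0.997).

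Per kb these chains together made up 99.8% (SD 0.057, n = 4) of the summed level of the 6 collagen IV genes. The level per kb of Col4a1 over that of Col4a2 was 1.92 and 2.08 without Dox and 1.99 and 2.07 with Dox, a mean of 2.01 (SD 0.076, n = 4). The groups overlapped. Col4a1 has 52 parts in 6615 bases, and a read that spans several parts may have been counted in each. Over parts of at least 200 bases, a setting added once the data had been seen, the ratio was lower, at 1.60.

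The other 4 collagen IV chains form the trimers of the kidney filter, lens and smooth muscle. Col4a5, on the X chromosome like Col4a6, stood at 74.9 and 42.5 CPM without Dox, against 70.2 and 44.2 CPM with Dox. Col4a6 stood at 12.9 and 8.20 CPM without Dox, against 11.6 and 7.03 CPM with Dox. For both genes the libraries numbered 1 were above those numbered 2, and the groups overlapped. Col4a3 had 6, 7, 7 and 8 counts in the 4 libraries and was not tested, and Col4a4 had 7, 9, 10 and 25 counts. Neither came near 1 CPM.

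Col4a1 and Col4a2 lie head to head on mouse chromosome 8 and are transcribed away from a shared promoter. RefSeq (GRCm38.p6) places their annotated starts 21 bases apart, so that the first bases of the transcripts overlap. The promoter windows of both are printed because this one stretch carries the first and second most abundant summed counts of the data. Each runs 5′ to 3′ on its gene's strand, from 250 bases before the start to 50 after it, and capitals mark the 78 bases that the windows share on opposite strands.
Col4a1 promoter window, chr8:11312777-11313076, minus strand: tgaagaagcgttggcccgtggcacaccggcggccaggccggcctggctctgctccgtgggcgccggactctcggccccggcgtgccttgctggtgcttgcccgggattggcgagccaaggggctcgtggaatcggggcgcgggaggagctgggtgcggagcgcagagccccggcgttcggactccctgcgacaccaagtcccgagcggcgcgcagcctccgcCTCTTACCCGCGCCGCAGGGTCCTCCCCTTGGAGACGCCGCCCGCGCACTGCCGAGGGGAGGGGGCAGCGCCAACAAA
Col4a2 promoter window, chr8:11312555-11312854, plus strand: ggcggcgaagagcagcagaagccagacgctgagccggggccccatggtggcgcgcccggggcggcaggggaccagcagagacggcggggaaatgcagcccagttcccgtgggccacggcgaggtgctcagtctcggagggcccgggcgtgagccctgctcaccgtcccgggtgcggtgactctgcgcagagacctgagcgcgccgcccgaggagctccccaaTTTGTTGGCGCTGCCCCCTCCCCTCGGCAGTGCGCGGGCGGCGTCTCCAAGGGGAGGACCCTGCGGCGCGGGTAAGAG
A search of both strands found CCAAT once in each window, CCCCTCCCC once in each window and GGGCGG once in the Col4a1 window and 3 times in that of Col4a2. The CCCCTCCCC matches are the same site in the shared capitals, read on opposite strands. The GGGCGG match of the Col4a1 window also lies in the capitals and is counted in both windows. Of 32851 promoter windows of this length, 37.4% hold CCAAT, 35.7% GGGCGG and 6.37% CCCCTCCCC. TATAAA, held by 13.6% of the windows, was in neither. A match is a match of letters and no evidence of binding.

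Laminins are cross-shaped trimers of an alpha, a beta and a gamma chain. A single chain of each kind dominated: Lama1 made up 98.0% (SD 0.34, n = 4) of the alpha chain level per kb, Lamb1 95.8% (SD 0.43) of the beta chain level and Lamc1 99.99% (SD 0.0037) of the gamma chain level. These are the chains of the laminin that the early embryo makes first. The beta and alpha chains, at 1162 and 1065 CPM per kb, overlapped over the libraries, and Lamc1 lay just below Lama1, at 884 CPM per kb, with ranges apart. Per kb the level of Col4a1 was 3.97 times (SD 0.16, n = 4) that of Lamc1, and 3.00 times over parts of at least 200 bases.

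Lama1 stood at 9782 and 9686 CPM without Dox, against 10027 and 11073 CPM with Dox. Both Dox libraries were above the others, by a log2 fold change of 0.12 (SE 0.15, 95% interval -0.24 to 0.47, adjusted p = 0.897). Lamb1 stood at 6558 CPM in both libraries without Dox, against 6400 and 7370 CPM with Dox, so the Dox libraries lay on either side (log2 fold change 0.07, SE 0.15, adjusted p = 0.959). Lamc1, the gamma chain of nearly all laminins, stood at 6451 and 6435 CPM without Dox, against 6657 and 7413 CPM with Dox, again with both Dox libraries higher (log2 fold change 0.13, SE 0.14, adjusted p = 0.878). No difference of these 3 chains passed the test.

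Lamb2, a beta chain of neuromuscular synapses and the kidney filter, was the most abundant of the other laminin chains, at 258 and 259 CPM without Dox, against 313 and 320 CPM with Dox. The groups did not overlap and their libraries lay close together. Its log2 fold change of 0.29 (SE 0.11, 95% interval 0.02 to 0.57) had an unadjusted p of 0.0397 and an adjusted p of 0.442 by edgeR, so it did not pass. Lama5, the widespread alpha chain of later embryonic and adult basement membranes, stood at 274 and 194 CPM without Dox, against 263 and 224 CPM with Dox, with the Dox libraries inside the range of the others.

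The remaining laminin chains were scarce. Lama2, the alpha chain of muscle and Schwann cell basement membranes, had 14 and 10 counts without Dox and 35 and 73 counts with Dox, or 0.514 and 0.408 against 0.936 and 1.34 CPM. The groups did not overlap, with a log2 fold change of 1.30 (SE 0.40, unadjusted p = 0.0173, adjusted p = 0.298 by edgeR). Lama4, the alpha chain of vessels and of mesenchyme, stood at 2.28 and 1.10 CPM without Dox, against 3.56 and 3.26 CPM with Dox (log2 change 1.002, SE 0.37, unadjusted p = 0.0367, adjusted p = 0.430 by edgeR). It was lowest in no Dox replicate 2. Lamb3 and Lama3, chains of the laminin of skin, were at 1.02 to 1.91 CPM and at 0 to 0.567 CPM. Lamc3 was at 0.257 to 0.787 CPM. In no Dox replicate 1 Lama3 had 0 counts, and a count of 0 allows up to 3.

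Nidogens link laminin to collagen IV. Nid1 stood at 1224 and 1588 CPM without Dox, against 1347 and 1968 CPM with Dox, and was higher in the libraries numbered 2 of both groups. Nid2 varied less, at 1440 and 1310 CPM without Dox, against 1442 and 1513 CPM with Dox. Per kb they were alike, at 251 and 292 CPM per kb with overlapping ranges. Log2 fold changes were 0.24 (SE 0.23, adjusted p = 0.846) for Nid1 and 0.10 (SE 0.14, adjusted p = 0.904) for Nid2.

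Hspg2, which encodes perlecan, the large heparan sulfate proteoglycan of all basement membranes, stood at 1669 and 1177 CPM without Dox, against 1591 and 1349 CPM with Dox. Agrn, whose protein agrin gathers acetylcholine receptors at the neuromuscular junction, stood at 999 and 784 CPM without Dox, against 1008 and 795 CPM with Dox. Both were higher in the libraries numbered 1 and overlapped between the groups, with log2 fold changes of 0.05 (SE 0.20) and 0.02 (SE 0.19). Per kb Agrn was at 130 and Hspg2 at 102 CPM per kb. Col18a1, the collagen from which endostatin is cut, stood at 507 and 316 CPM without Dox, against 625 and 454 CPM with Dox. Dox replicate 2 lay below no Dox replicate 1, so the groups overlapped (log2 fold change 0.39, SE 0.26, adjusted p = 0.744). Col15a1, its relative of muscle and vessels, had 6 to 16 counts and was not tested.

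Col18a1 has a pair of annotated starts. The first exon of the upstream start (110 bases) held 77 and 36 counts without Dox and 141 and 103 with Dox. That of the downstream start held 3, 4, 10 and 6 counts over its 747 bases. The upstream first exon, though shorter, thus held more counts in all 4 libraries.

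Sparc is a collagen-binding secreted glycoprotein that helps basement membrane assembly. It stood at 6720 and 9248 CPM without Dox, against 7107 and 9751 CPM with Dox (log2 change 0.08, SE 0.23, adjusted p = 0.975). The libraries numbered 2 were the higher ones in both groups. Its level per kb relative to that of Col4a1 was therefore 0.824 and 0.917 in the libraries numbered 1 and 1.20 and 1.14 in those numbered 2, and the order of the most abundant pair of genes differed between replicates. Over parts of at least 200 bases the ratio was between 1.12 and 1.20 in all 4 libraries.

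Smoc1, a relative of Sparc in basement membranes, stood at 186 and 214 CPM without Dox, against 163 and 215 CPM with Dox, and Smoc2 at 3.42 to 4.86 CPM over the 4 libraries. Fbln1, a calcium-binding matrix protein, stood at 210 and 157 CPM without Dox, against 191 and 160 CPM with Dox. Fn1 encodes fibronectin, a ligand of integrins outside and beside basement membranes, and stood at 389 and 260 CPM without Dox, against 314 and 238 CPM with Dox. None of these 4 genes was apart between the groups. At 36.1 CPM per kb, Fn1 was far below Col4a1, Col4a2, Lama1, Lamb1 and Lamc1. Its log2 fold change was the lowest of the 5 matricellular and fibronectin genes, at -0.24 (SE 0.23, adjusted p = 0.850).

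Serpinh1 encodes the collagen chaperone of the endoplasmic reticulum. It stood at 1596 and 2429 CPM without Dox, against 1872 and 2552 CPM with Dox, at a mean of 865 CPM per kb, on a level with Lamc1. The prolyl hydroxylase subunits P4ha1 and P4ha2 make the hydroxyproline that stabilises the collagen helix. P4ha1 stood at 1083 and 1253 CPM without Dox, against 1071 and 1335 CPM with Dox, and P4ha2 at 481 and 723 CPM without Dox, against 485 and 774 CPM with Dox. In each of these 3 genes the libraries numbered 2 were higher in both groups. None of the differences with Dox passed, with log2 fold changes of 0.14 (SE 0.25), 0.04 (SE 0.17) and 0.06 (SE 0.28).

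The lysyl hydroxylases Plod1 and Plod2 modify collagen lysines before cross-linking. Plod2 stood at 1656 and 1578 CPM without Dox, against 1432 and 1656 CPM with Dox, and per kb it was 426 against 74.7 CPM per kb for Plod1. Plod1 stood at 183 and 255 CPM without Dox, against 228 and 302 CPM with Dox. Its Dox libraries were each above the library of the same number, yet the groups overlapped (log2 fold change 0.28, SE 0.21, adjusted p = 0.794).

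Both P4ha2 and Plod2 have alternative exons that appear as parts of their own, printed here because the counts separate them. They were read from the GENCODE M21 transcripts (GRCm38), in coding sequence, and a part was tied to its exon by its place in the gene and not by a position in the files. All bases are in lower case because nothing within them is marked.
P4ha2 60-base exon, chr11:54126238-54126297, plus strand: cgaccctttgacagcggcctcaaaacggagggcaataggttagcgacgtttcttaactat
P4ha2 66-base exon, chr11:54126346-54126411, plus strand: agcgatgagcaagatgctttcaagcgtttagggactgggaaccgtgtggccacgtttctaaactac
Plod2 63-base exon, chr9:92601985-92602047, plus strand: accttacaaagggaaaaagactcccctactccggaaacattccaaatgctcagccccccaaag
The 60-base exon took 63.8% and 63.7% of the counts of the P4ha2 pair without Dox and 64.2% and 65.97% with Dox, so it was the more counted of the pair in every library. The 63-base exon, which sets the long form of Plod2 apart, had 222 and 217 counts without Dox and 249 and 493 with Dox. That was 8.63%, 10.04%, 7.97% and 9.32% of the mean count of the parts on either side. Parts differ in length, so these percentages compare libraries and are no inclusion rates.

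Itgb1 encodes the beta chain that most laminin-binding integrins share. It stood at 603 and 536 CPM without Dox, against 626 and 635 CPM with Dox, and was the most abundant receptor, at 157 CPM per kb. Its partner Itga6, an alpha chain of laminin receptors, stood at 233 and 224 CPM without Dox, against 248 and 270 CPM with Dox. In both genes the groups did not overlap, with log2 fold changes of 0.15 (SE 0.13, adjusted p = 0.832) and 0.18 (SE 0.12, adjusted p = 0.728) that did not pass the test. Itga3, another laminin-binding chain, stood at 135 and 97.6 CPM without Dox, against 97.2 and 97.5 CPM with Dox. Its Dox libraries were all but level with no Dox replicate 2, and no Dox replicate 1 stood above the rest. Dag1, which encodes dystroglycan, stood at 192 and 107 CPM without Dox, against 174 and 126 CPM with Dox, with the Dox libraries inside the range of the others.

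The exon of Itga6 that gives the A form of its cytoplasmic tail (130 bases) held 18 and 16 counts without Dox and 23 and 46 with Dox. The part before it, of 126 bases, held 240, 265, 376 and 698 counts. The A exon was thus at 6.04% to 7.50% of its neighbour in the 4 libraries. In Fn1 the counts per base of the extra domain A exon (270 bases) were 106% and 151% of the mean of 3 other parts of 267 to 273 bases without Dox, and 108% and 145% with Dox. Those of the extra domain B exon (273 bases) were 70.6% and 102% without Dox and 78.0% and 95.4% with Dox. On this measure the libraries numbered 2 were the higher ones in both groups and the groups overlapped. The 3 other parts all lie 5′ of the extra domain A exon. Against the mean count of its adjacent parts, not scaled by length, that exon was at 135% and 108% without Dox and 118% and 116% with Dox. There the libraries numbered 2 were the lower ones. Extra domain B was at 89.2% and 133%, against 99.6% and 101%. The replicate pattern of domain A thus depended on the parts compared.

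The use of parts inside a gene was compared by edgeR in 11554 genes, of which 2 (0.0173%) were called at an adjusted Simes p under 0.05. Of the 28 members tested, with 847 parts, 0 were called by the Simes or the F test, and 0 of their parts had an unadjusted p under 0.05. Over all genes 0.209% of parts did, a share far below the one that a threshold of 0.05 allows by chance. The test was thus strict with these data, and 0 calls do not show that part use was unchanged.

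Across the 34 members tested, edgeR called 0 higher and 0 lower with Dox (adjusted p under 0.05), beside 1.28% of all genes in either direction. DESeq2 and limma-voom also called 0. The count of members was not the same in every model: with the replicate number as a term, edgeR called 5 higher and 0 lower. Of all genes that model called 7.33% higher, and 864 of 14277 lower. At an unadjusted p under 0.05, 3 were higher (Lama2, Lama4 and Lamb2) and 0 lower, where 6.25% of all genes were higher and 4.01% lower. Log2 fold changes were above 0 in 26 members and below 0 in 8, with a median of 0.07, against -0.01 over all genes. Of all 14277 genes 6723 were above 0. All 10 laminin genes were above 0, with a median of 0.24, while the dominant Lama1, Lamb1 and Lamc1 were at 0.12, 0.07 and 0.13. Both Dox libraries were above both others in 9 members (18.9% of all genes) and below them in 1 (19.9% of all genes). Of the members' 95% intervals, 27 of 34 (79.4%) lay within 2-fold in both directions, as did 75.6% over all genes.

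**Figure D2:**
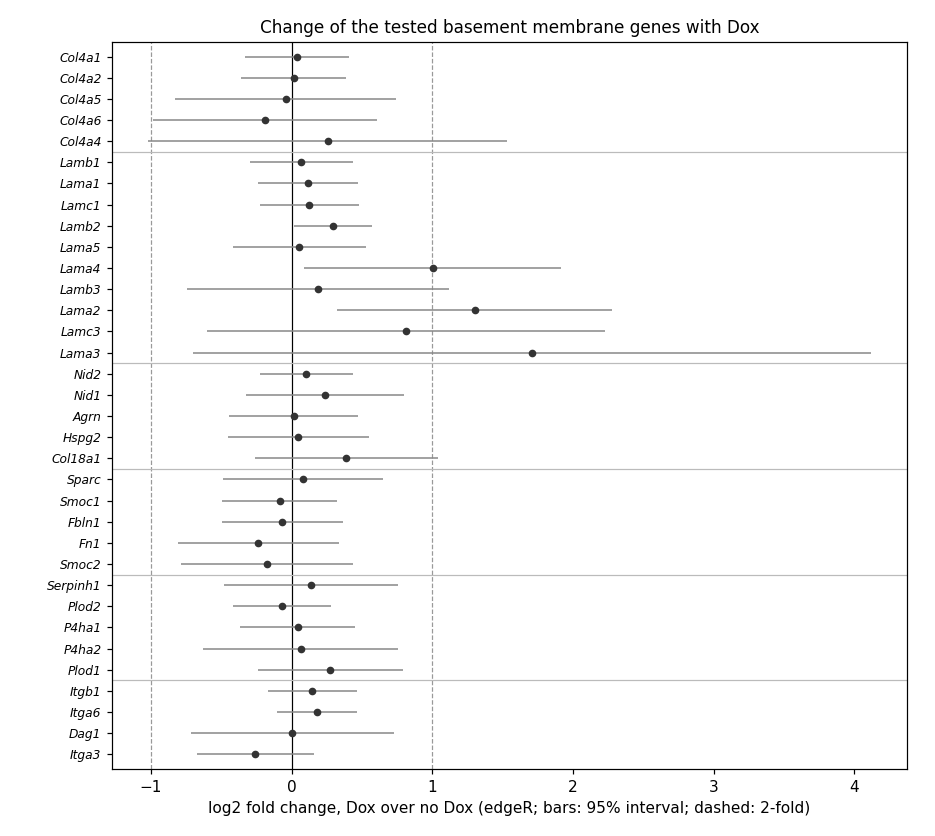
Log2 fold change with Dox of the 34 members tested, in the same order as the levels, as points with 95% intervals from edgeR; the dashed lines mark 2-fold. Intervals are narrow and include 0 for Col4a1, Col4a2, Lama1, Lamb1 and Lamc1 and wide for scarce laminin chains; those of Lamb2, Lama4 and Lama2 lie above 0, and none of the 34 passed the adjusted test.

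Markers of cell types that could hold these transcripts were read in the same libraries. Of 16 markers of primitive and parietal endoderm, Cubn (619 to 1184 CPM), Dab2 (647 to 809 CPM), Lrp2 (524 to 910 CPM) and Gata4 (553 to 644 CPM) had the highest CPM. Per kb the highest were Pth1r at 196, Gata4 at 174 and Dab2 at 152 CPM per kb, with Cubn at 75.1 and Lrp2 at 44.0, both long. The lowest of the list were Afp and Apoa1, at 0.294 to 2.16 CPM, and no marker was at 0 in all libraries. Their summed level was 5119 and 4649 CPM without Dox, against 4463 and 4511 CPM with Dox. In edgeR, DESeq2 and limma-voom 0 of the 16 were called, and 0 had an unadjusted p under 0.05 in edgeR. Endothelial markers summed to 26.9 to 55.1 CPM, and 1 of the 5 tested, Erg, rose (0.0734 and 0.163 CPM against 1.90 and 2.67 CPM, adjusted p = 0.0197). Emcn had 0 counts in both libraries numbered 2. In these bulk samples, fewer cells of a type and less RNA per cell cannot be told apart.

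Of 8 mesenchymal markers, 3 rose with Dox: Col3a1 (12.8 and 15.7 CPM against 74.2 and 61.2 CPM), Col1a1 (7.23 and 7.18 CPM against 34.4 and 23.3 CPM) and Prrx1 (2.61 and 3.63 CPM against 35.3 and 25.1 CPM). Their adjusted p were 0.004, 0.0175 and 0.0045. The summed level of the 8 was 165 and 157 CPM without Dox, against 345 and 285 CPM with Dox, and none of them was at 0. Markers of neural progenitors summed to 1410 and 1201 CPM without Dox, against 1163 and 909 CPM with Dox, and those of neurons to 427 and 348 CPM against 310 and 232 CPM. By edgeR 0 of these 15 passed, with 5 of 8 and 3 of 7 lower at an unadjusted p under 0.05, and DESeq2 called 3 and 2 lower and limma-voom 0. Pluripotency markers summed to 10.7 to 14.3 CPM in all libraries. The part of any of these in the members' values was not tested.

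The wider pathway was read through 83 other genes, of which 80 were tested, and 2 rose and 1 fell with Dox. At an unadjusted p under 0.05 by edgeR, 16 of the 80 were higher and 3 lower. Of all genes 6.25% were higher and 4.01% lower at that threshold. The other matrix and linker genes held 5 of the higher and 2 of the lower ones, and the other processing genes 5 of the higher. Among 18 other matrix and linker genes Egfl6, a secreted matrix protein with EGF repeats, rose from 0.330 and 0.122 CPM to 4.31 and 3.28 CPM, by 4.02 in log2 units (SE 0.46, adjusted p = 0.0183). Vtn, which encodes vitronectin, fell from 4.59 and 5.26 CPM to 1.63 and 1.52 CPM, by 1.64 in log2 units (SE 0.25, adjusted p = 0.0445). The most abundant of this list were Tinagl1 at 213, Pxdn, a peroxidase that cross-links collagen IV, at 90.9 and Spock1 at 27.4 CPM per kb. Among 16 other processing genes Pcolce, which speeds the trimming of fibrillar procollagens, rose from 10.8 and 13.8 CPM to 34.4 and 28.6 CPM, by 1.36 in log2 units (SE 0.19, adjusted p = 0.0363). P4hb, the partner subunit of the prolyl hydroxylases, was at 861, Loxl2, a lysyl oxidase that cross-links collagen IV, at 685 and Ppib at 151 CPM per kb.

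Vtn did not pass when the largest part stood for the gene (adjusted p = 0.200), nor did Pcolce (adjusted p = 0.0901). Pcolce also missed in a test limited to a mean of 5 CPM or more (adjusted p = 0.0550), and Vtn over the most 3′ of 3 equal stretches of a gene's parts (adjusted p = 0.139), a setting that was likewise added later. Of 12 remodelling genes, led by Sulf2 at 64.0, Adamts9 at 45.2 and Timp2 at 37.5 CPM per kb, 0 passed by edgeR or limma-voom, 2 were higher at an unadjusted p under 0.05, and DESeq2 called 1. Of 25 other receptors, led by Gpc3 at 120, Itga5 at 51.9 and Sdc4 at 33.96 CPM per kb, 0 passed by edgeR or limma-voom, 4 were higher and 1 lower at an unadjusted p under 0.05, and DESeq2 called 2 higher. Of 9 genes that glycosylate dystroglycan, led by Pomgnt1 at 30.3, Pomt1 at 16.8 and B4gat1 at 15.01 CPM per kb, 0 passed by any of the 3 tools and 0 had an unadjusted p under 0.05 in edgeR.

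Differences between libraries of a group ran along replicate number. In the 24 members with enough parts and counts, the parts before the middle of the gene held a median of 39.0% and 36.2% of the counts in the libraries numbered 1 (no Dox and Dox) and 25.9% and 27.8% in those numbered 2. All 24 were lower in the library numbered 2 in both groups, as were 98.4% of all such genes without Dox and 96.9% with Dox. In Lama1 these parts held 40.3% and 36.1% of the counts in the libraries numbered 1 and 24.6% and 24.3% in those numbered 2.

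**Figure D3:**
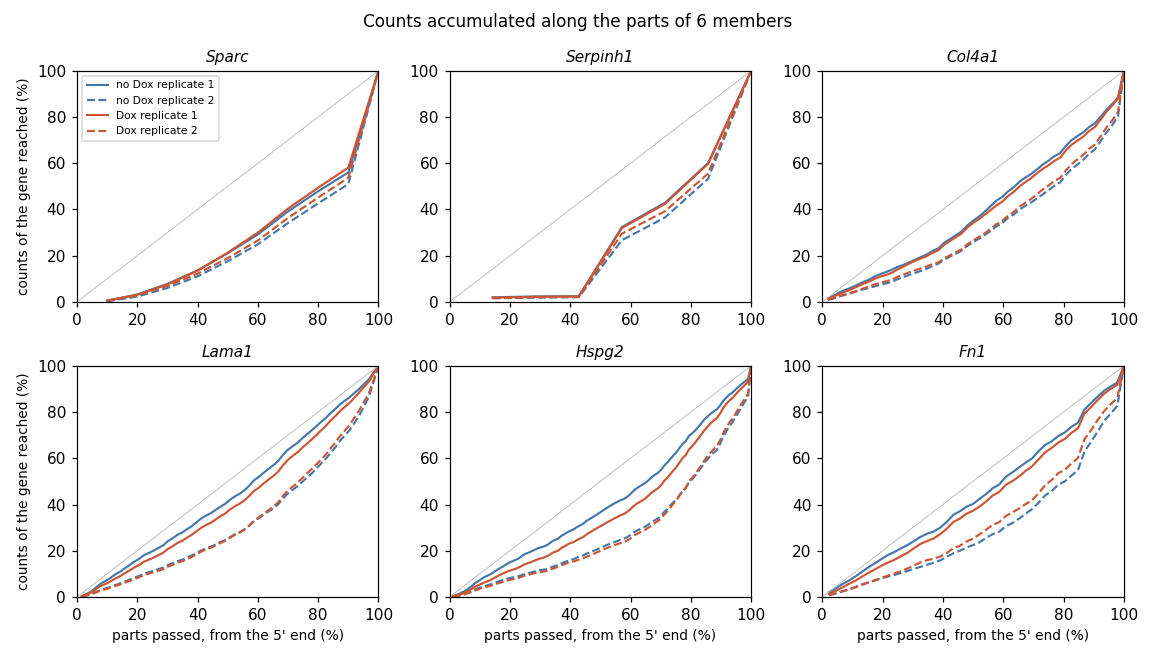
Percent of a gene's counts reached (vertical) against percent of its parts passed from the 5′ end (horizontal) for 6 members, 1 line per library; solid lines are replicate 1, dashed replicate 2, blue no Dox and red Dox, and the grey diagonal marks equal counts in every part. In Col4a1, Lama1, Hspg2 and Fn1 the dashed lines run below the solid ones in both groups, with a smaller gap in Sparc and Serpinh1.

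Among the 27 members at a mean of 5 CPM or more, 9 were higher in replicate 2 than in replicate 1 in both groups, 9 were lower in both and 9 differed between the groups. The log2 ratio of replicate 2 over 1 was 0.59 and 0.67 (no Dox and Dox) for P4ha2 of 2329 bases, 0.61 and 0.45 for Serpinh1 of 2443 bases and 0.46 and 0.46 for Sparc of 2300 bases. It was -0.50 and -0.24 for Hspg2 of 14176 bases and -0.58 and -0.40 for Fn1 of 8315 bases. Spearman's correlation of this ratio with exonic length was -0.56 without Dox and -0.54 with Dox over the 27 members, and Pearson's correlation of the ratios between the groups was 0.95. These are correlations across genes that share the same 4 libraries, given as a description. Nid1, at 6091 bases with ratios of 0.38 and 0.55, and Dag1, at 4415 bases with -0.84 and -0.46, lay off that order.

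**Figure D4:**
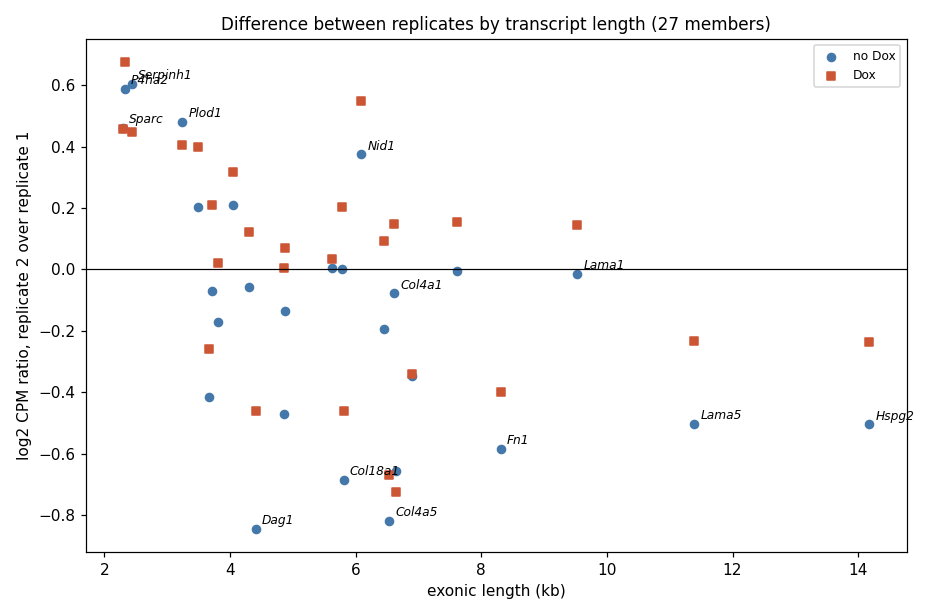
Log2 ratio of CPM in replicate 2 over replicate 1 (vertical) against exonic length in kb (horizontal) for the 27 members at a mean of 5 CPM or more; circles are no Dox and squares Dox, and 13 genes are named beside their no Dox point. The 4 members P4ha2, Serpinh1, Sparc and Plod1 lie above 0 in both groups and Lama5 and Hspg2, the longest, below 0 in both.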

How the data were processed

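RNA from 4 samples was sequenced after TruSeq preparation, per the labels' protocols, and the submitters' processing notes name TopHat and mm9. The counting tool, its annotation and its strand setting were not given in the sources used here. Deposited were whole-number counts for 208825 parts (exon pieces) of genes, with no positions, and a read may count in several parts. Reads outside genes (13.6% to 15.8%) and ambiguous reads (0.41% to 0.52%) were left out. Parts were summed to 21822 gene units and named through RefSeq (GRCm38.p6) and GENCODE M21 tables, in which 98.1% of 27601 transcript identifiers matched. Part positions could be tied to exons in 28 of 36 members.

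CPM were scaled by TMM. Tests used edgeR 4.0.16 in R 4.3.3 (quasi-likelihood, filterByExpr, Benjamini-Hochberg over 14277 genes, threshold 0.05), checked on simulated data, with DESeq2 1.42.0 and limma-voom (limma 3.58.1) as alternatives. The design text calls the libraries biological duplicates, and p-values measure only the spread between them. The difference between replicates exceeded sampling noise, with 36.5 and 32.6 as chi-square over degrees of freedom. The members and gene lists were chosen with earlier results of these data known. Named beside the members are called pathway genes, the 3 of each pathway list with the highest level per kb, the most abundant and some other markers, and Isl1 and Lhx3.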

Additional observations from a re-analysis of the deposited data

How the results depend on the processing

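Among the members each setting tested, 0 were called higher and 0 lower with Dox under other size factors, library totals, no filter on low counts, a mean of at least 5 CPM (27 members, without Lama2 and Lama4), DESeq2, limma-voom, the largest part per gene (28), the most 3′ parts (31; the last of 3 equal stretches of a gene's parts) and each library left out (0 to 0). This changed with the replicate number as a block. The labels do not say that a number is a shared culture or day, and across genes the deviations of same-numbered libraries from their group means correlated at 0.52. With the replicate block 5 members were higher: Col18a1 (adjusted p = 0.00186), Lama4 (0.011), Lamb2 (0.0148), Plod1 (0.0203) and Lama2 (0.04), all by edgeR, and 7.33% of all genes were called higher. It also called 7 of 8 neural progenitor and 6 of 7 neuron markers lower, 5 of 8 mesenchymal and 2 of 5 endothelial ones higher, and 1 of 16 endoderm markers in each direction. With the block over the most 3′ parts 6 were higher, Nid1 in addition (0.0187), beside 7.20% of all genes. No member was lower under either, where of all genes 864 of 14277 and 687 of 13468 were called lower. Signs of uncalled members changed in 6 to 12 of 33 or 34 when a library was left out, in 1 with the largest part and in 1 with the most 3′ parts. The test of part use called 0 members under every setting tried, but it called few genes of any kind and does not show unchanged use.

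Of the other pathway genes, 2 higher and 1 lower became 4 higher with library totals, 10 higher without a filter on low counts, 0 higher and 0 lower at a mean of at least 5 CPM (where Egfl6 and Vtn were not tested), 11 higher and 2 lower by DESeq2, 20 higher and 6 lower with the replicate block alone or over the most 3′ parts, and 7 higher and 0 lower over the most 3′ parts without the block. With the largest part 0 were lower. Leaving out a library gave 7 to 10 higher and 1 to 2 lower. Vtn and Pcolce were lost as given above.

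Levels rest on part sums. With the median over parts (28 members), Col4a1 over Col4a2 was 2.20 and Sparc over Col4a1 1.20, Col4a1 and Col4a2 made up 99.98% of collagen IV and Lamc1 99.997% of gamma chains. Neither this setting nor the next holds Col4a5 or Lama2, and without Col4a5 the main collagen IV share is 99.97%. Over parts of at least 200 bases (28 members) the first ratio was 1.60, Col4a1 over Lamc1 3.00, the shares 99.96% for collagen IV, 98.4% for Lama1 and 95.3% for Lamb1, and the summed level 10351 CPM per kb, against 15200 over 36 members. Level estimates moved by more than their SD in 17 and 15 of 28 members under these 2 settings and in 0 of 36 under the other ones. The most 3′ parts and the parts of at least 200 bases were chosen after seeing the data. Chains with under about 1 CPM are limited by depth, and their values by counting error.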
